A study of Homo sapiens with 6 samples.

Results

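The genes described here encode the protein machinery that makes the 3′ ends of RNA polymerase II transcripts: the cleavage and polyadenylation factors, the phosphatases and nuclease of transcription termination, the Integrator complex, and the factors of histone mRNA 3′ ends and of the nuclear cap. They were 47 genes listed by symbol, and each was taken from the deposited count table by its gene name, with the row of the highest mean count where a name stood on several rows. All 47 were found among the 23382 gene names of the table, and 43 had enough counts to be tested. RNA was sequenced from UM-UC-3, an established human bladder cancer cell line, in 3 libraries labelled si-CPSF3, an siRNA against the 3′ end endonuclease CPSF3, and 3 labelled negative control. All libraries come from the same parental line without any stated genetic change, with the siRNA sequence, dose, time and nature of the control not given in the sources used here. The labels number the libraries 1 to 3 in each group and do not say whether these were separate cultures, so p-values measure only the spread between these libraries, which may be technical.

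Most mRNAs are cut downstream of an AAUAAA hexamer, which is read by the CPSF complex, and then receive a poly(A) tail. CstF and the cleavage factors CFIm and CFIIm bind sequences around the site, and after the cut the exonuclease XRN2 degrades the RNA still attached to the polymerase, which helps to end transcription. Integrator carries its own endonuclease, a relative of CPSF3, and cuts small nuclear RNAs and nascent transcripts near promoters. Replication-dependent histone mRNAs have no poly(A) tail: they are cut by the CPSF3 nuclease beside a stem-loop, with the help of the U7 ribonucleoprotein.

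The mRNAs of these factors are themselves products of the cleavage step. In GENCODE 29, 33 of the 47 factors (70.2%) had AATAAA in the last 40 bases of their principal coding transcript, in the sense orientation, and 6 more (12.8%) had ATTAAA alone. Over 19553 protein-coding genes, 58.2% had AATAAA and 13.2% had ATTAAA alone. These genes were taken whether or not they were expressed here, so the shares are not from like sets. The sites below belong to the 4 factors whose 95% interval of the fold change excluded 0 and to XRN2, which varied most between libraries among the factors with at least 1000 counts in all. Each is a window of 30 bases, written as DNA 5′ to 3′ on the strand of the gene, with the hexamer in capitals. WDR82 had neither hexamer in the last 40 bases, so its last 30 bases are shown in lower case. These windows describe the annotated ends and carry no measurement of where the transcripts in these libraries ended.
ZNF473: ggttctctgATTAAAgttttgagtctaaaa
SSU72: ggaattgtcAATAAAcagatgctgctgtca
PABPN1: AATAAAaattgtttggccttttgggtgtaa
WDR82: tacagtcttaaacagaattttatggctgca
XRN2: aaaaAATAAAgttaaacttttaaaactctg
On GRCh38 they lie at chr19:50048747-50048776 on the plus strand for ZNF473, chr1:1541673-1541702 on the minus strand for SSU72, chr14:23326156-23326185 on the plus strand for PABPN1, chr3:52254421-52254450 on the minus strand for WDR82, and chr20:21389798-21389827 on the plus strand for XRN2.

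Total counts after one row was kept per name were 4224413 to 4378899 in the libraries labelled si-CPSF3 and 4145385 to 4362312 in the control libraries. Ribosomal protein genes and their pseudogenes took 49.8% to 52.7% of the si-CPSF3 counts and 47.03% to 52.6% of the control counts, so the depth left for other genes was low. Mitochondrial genes took 7.17% to 8.64% and 6.79% to 7.47% in the same order, and the groups overlapped. MALAT1, a nuclear noncoding RNA, took 1.73% to 2.67% of the si-CPSF3 counts and at most 1.63% of the control counts, without overlap. A fit without the ribosomal, mitochondrial and MALAT1 genes gave the tested factors a median log2 fold change of -0.084, beside -0.085 with them. No factor had an edgeR adjusted p under 0.05 in either fit. Any other part of these shares in the values of the factors was not tested. The 47 factors together received 3101 to 4232 counts per library labelled si-CPSF3 and 3388 to 4597 counts per control library. Summed keratins 7, 8 and 18, markers of epithelium, lay at 206 to 244 CPM (counts scaled to library size with composition factors) in the libraries labelled si-CPSF3 and at 206 to 269 CPM in the controls. EPCAM, CDH1 and KRT19 and the urothelial marker UPK2 had no count or no row under that name. The urothelial list as a whole summed to 9.40 to 10.9 CPM and 12.5 to 14.6 CPM. The mesenchymal list (4 of 4 markers detected, 1 of 3 tested called) summed to 219 to 262 CPM and 273 to 325 CPM. CD44, the one basal urothelial marker detected of 4, was called lower at 76.8 to 92.3 CPM and 116 to 153 CPM. The leukocyte markers CD68 and LYZ summed to 27.7 to 34.1 CPM and 38.6 to 42.9 CPM, without a call, while PTPRC and CD3E had no count or no row. Endothelial and erythroid markers each stayed under 0.5 CPM in every library. The part of these markers in the values of the 47 factors was not tested.

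The targeted gene checks the labels. CPSF3 had 56, 38 and 66 counts in replicates 1 to 3 of the libraries labelled si-CPSF3 and 20, 50 and 36 counts in the controls, and the groups overlapped. These were 13.0 ± 3.54 and 8.10 ± 3.15 CPM (SD, n = 3 each). The log2 fold change was 0.67 (95% interval -0.003 to 1.35, edgeR unadjusted p = 0.051). It did not pass (edgeR adjusted p = 0.329, and exact permutation p = 0.3, two-sided, where 0.1 is the smallest 3 against 3 libraries allow). The targeted mRNA was thus not reduced under the si-CPSF3 label, and the groups are called by their labels throughout. The intervals of the related nucleases included 0: CPSF2, the catalytically inactive partner of CPSF3, stood at a log2 fold change of -0.06 (95% interval -0.42 to 0.30), INTS11, the Integrator endonuclease, at 0.38 (-0.13 to 0.89), and its partner INTS9 at -0.07 (-1.06 to 0.92).

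None of the 43 tested factors differed between the groups at an adjusted p under 0.05, while 247 of all 11069 genes tested did (2.23%, of which 0.723% higher and 1.51% lower). The 247 became 85, 115 and 122 without replicate 2 or 1 labelled si-CPSF3 or control replicate 1, 147 with the replicate number as a block, 31 to 41 on FPKM and 547 without a filter on low counts. This count of 0 came from edgeR's quasi-likelihood test, and DESeq2 and limma-voom also gave 0. At an unadjusted p under 0.05 there were 4 factors, ZNF473 and SSU72 on the higher side and PABPN1 and WDR82 on the lower side. That is 9.3% of the 43, against 15.4% of all genes tested (7.05% higher and 8.33% lower). The groups did not overlap in CPM for 6 of the 43 (14%), the same 4 with CSTF2 and CSTF3, against 21.2% of all genes tested. Both shares lay below those of all genes. The median log2 fold change of the 43 was -0.09, with 20 above 0 and 23 below, beside a median of -0.01 over all genes tested. In bulk RNA of this kind, fewer cells expressing a gene and less of its RNA per cell cannot be told apart.

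The precision differed with abundance. The 21 factors of at least 10 CPM had a median standard error of 0.21 on the log2 scale, and for 20 of them the whole 95% interval lay within a 2-fold change in either direction. Among the 22 factors under 10 CPM the median standard error was 0.37, and 12 had an interval within that range. A 2-fold change is therefore outside the interval for 32 of 43 factors, and for the other 11 it is not. In the plot of fold changes by subcomplex most intervals straddle 0.

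**Figure D1:**
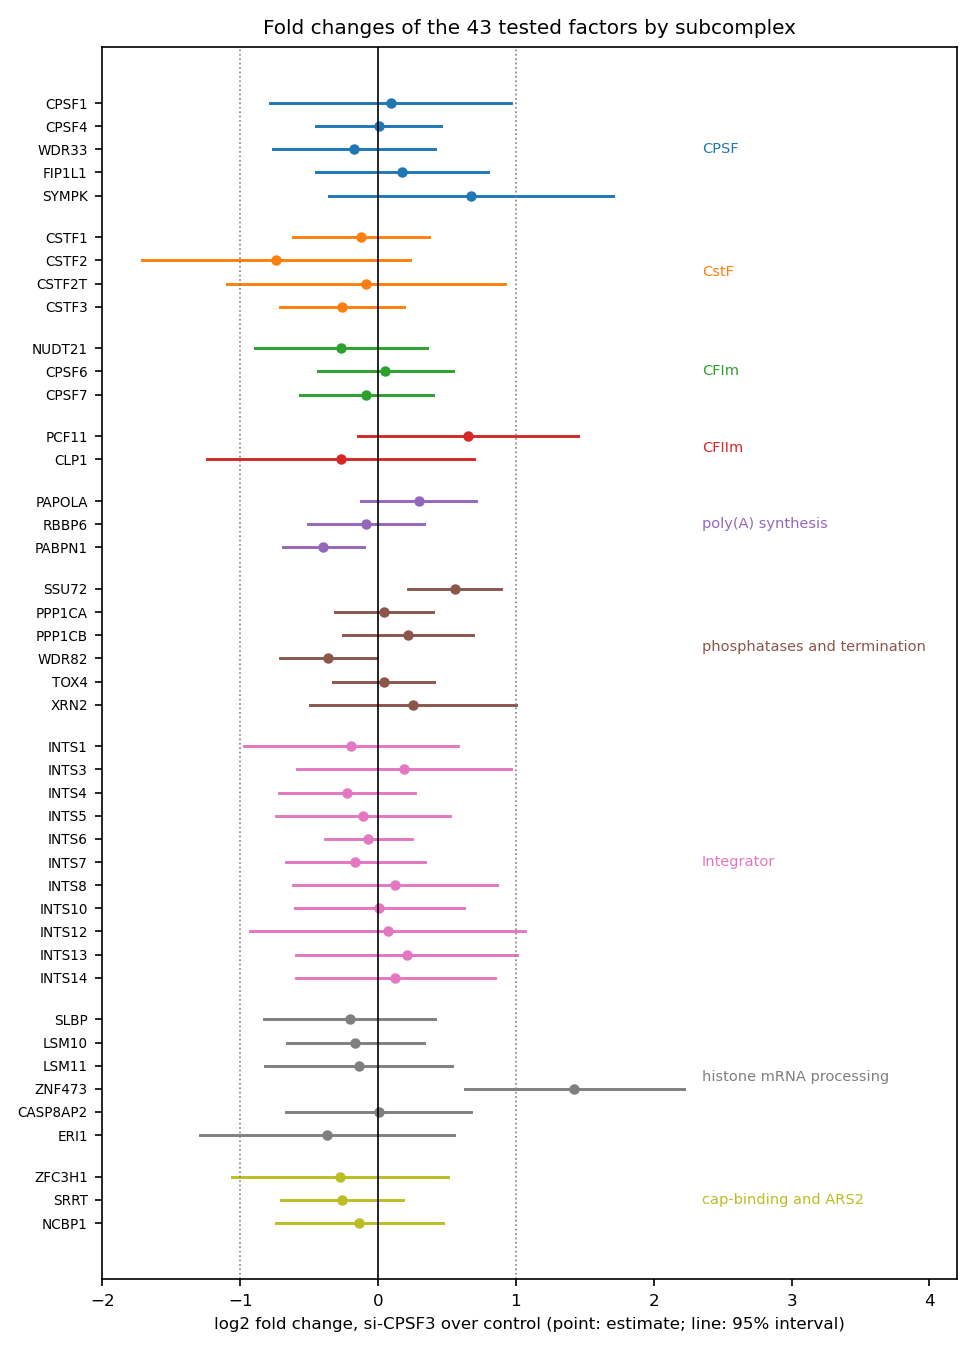
Log2 fold change of the 43 tested factors, si-CPSF3 over control, on the horizontal axis, grouped by subcomplex down the page; points are edgeR estimates, lines 95% intervals and dotted lines a 2-fold change. The intervals of ZNF473, SSU72, PABPN1 and WDR82 exclude 0, and 32 of the 43 lie within the dotted lines.

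Levels can be compared between factors only per transcript length, in the deposited FPKM values (fragments scaled to transcript length and library size). PABPN1, the nuclear poly(A)-binding protein that controls tail length, was the highest of the 47 at 121 ± 25.2 FPKM (SD over 6 libraries). SSU72, a phosphatase of the polymerase tail, followed at 61.8 ± 14.2 FPKM, then PPP1CA, a catalytic subunit of protein phosphatase 1, at 56.1 ± 14.6 FPKM. These values of SSU72 and PPP1CA did not differ beyond their spread. The lowest were NPAT, the coactivator of histone gene transcription, at 0.219 ± 0.126 FPKM, PPP1R10, the PNUTS scaffold that brings protein phosphatase 1 to the polymerase, at 0.317 ± 0.188 FPKM, and the poly(A) polymerase PAPOLG at 0.328 ± 0.12 FPKM. The median of the 47 was 2.87 FPKM, and 37 reached 1 FPKM and 8 reached 10 FPKM.

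Subunits of a single complex did not stand at equal mRNA levels. In CPSF the range went from 0.738 FPKM for the scaffold SYMPK to 11.3 FPKM for the zinc finger subunit CPSF4, and in CstF from 0.633 FPKM for CSTF2T to 22.3 FPKM for the scaffold CSTF3. CPSF4 is overlapped on the other strand by ATP5MF, with 262.5 counts on average against 70.5 for CPSF4. Reads from the shared stretch could have been counted for either gene. LINC00294 on the other strand overlaps CSTF3, with 176.5 counts on average against 59.3 for CSTF3. CSTF3 also had fewer counts than CSTF1, 356 against 394 over 6 libraries, while CSTF1 stood at 4.42 FPKM. The place of CSTF3 at the top of CstF thus held in FPKM and not in counts, and the cause was not tested. The CFIm subunits lay between 2.33 and 4.24 FPKM. Integrator subunits lay between 0.416 FPKM for INTS2 and 5.60 FPKM for INTS6. The plot of FPKM by subcomplex sets the means of both groups side by side for every factor.

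**Figure D2:**
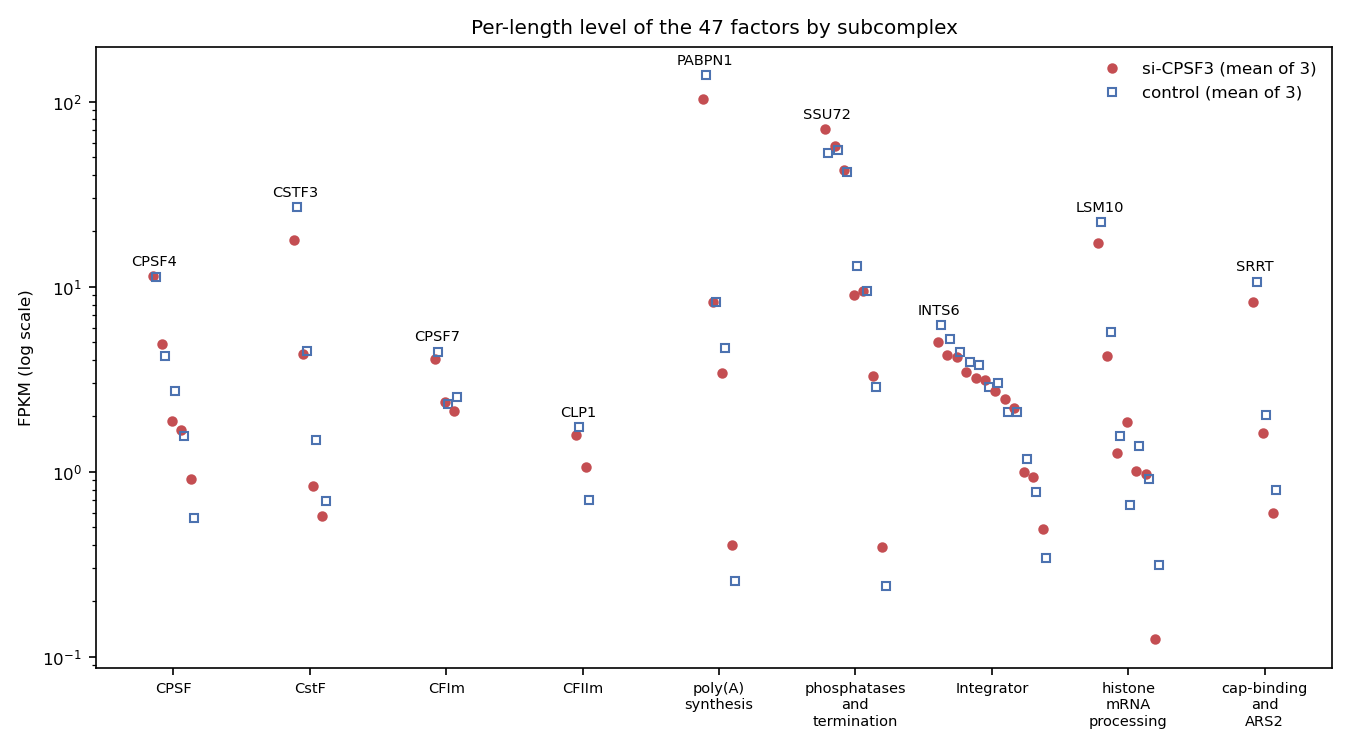
Mean FPKM (log scale) of the 47 factors by subcomplex; filled circles are the means of the 3 libraries labelled si-CPSF3, open squares those of the 3 controls, and within a subcomplex factors run in order of level, with the highest named. PABPN1 lies highest at 121 FPKM over all 6 libraries and NPAT lowest at 0.219 FPKM.

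The core CPSF subunits showed no difference beyond the spread. CPSF1, the large scaffold, had 19, 12 and 14 counts in the libraries labelled si-CPSF3 and 13, 19 and 13 in the controls. CPSF4 and WDR33, which bind the hexamer directly, averaged 16.6 ± 2.27 and 16.5 ± 2.10 CPM for CPSF4 and 10.4 ± 1.92 and 11.7 ± 3.73 CPM for WDR33 in the same order (SD, n = 3). FIP1L1, which binds U-rich RNA and contacts the poly(A) polymerase, averaged 13.7 ± 4.21 CPM in the libraries labelled si-CPSF3 and 12.03 ± 3.95 CPM in the controls, and the groups overlapped. SYMPK, the scaffold shared by the polyadenylation and histone cleavage complexes, had the highest estimate of the complex, at 0.67 (95% interval -0.36 to 1.70). It rested on 15, 22 and 8 counts in the libraries labelled si-CPSF3 against 11, 13 and 6 in the controls, and the groups overlapped.

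All 4 CstF subunits had estimates below 0, as had 5627 of all 11069 genes tested, with a median of -0.19 and no call. CSTF2, the subunit that binds the GU-rich element downstream of the cut, had 10, 7 and 8 counts in the libraries labelled si-CPSF3 and 13, 14 and 17 counts in the controls. The groups did not overlap, and the log2 fold change was -0.74 (SE 0.46, 95% interval -1.71 to 0.24, edgeR adjusted p = 0.492). CSTF3 stood at 13.4, 11.7 and 12.9 CPM in the libraries labelled si-CPSF3 and at 15.6, 15.6 and 14.3 CPM in the controls. These groups did not overlap either, and the log2 fold change was -0.26 (SE 0.21, edgeR adjusted p = 0.614). CSTF3 shares its locus with the noncoding gene LINC00294 on the other strand, which had more counts than CSTF3 and a log2 fold change of -0.25 (SE 0.17). With the strand setting of the counting not given in the sources used here, reads from the shared stretch could have been counted for either gene. Overlap was taken between whole gene spans, introns included, so the number of such reads is not known. CSTF1 at -0.12 and CSTF2T at -0.09 had overlapping groups, and their estimates changed sign in 2 of 18 and 2 of 17 alternatives. The low count of CSTF2 and CSTF2T, 7 to 17 and 6 to 12 per library, gave intervals that reach past a 2-fold change.

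The CFIm complex, which binds UGUA upstream of the site and affects the choice between sites, had 3 subunits whose intervals included 0. NUDT21, its RNA-binding subunit, had 8.65 ± 2.42 CPM in the libraries labelled si-CPSF3 and 10.4 ± 2.78 CPM in the controls (SD, n = 3). OGFOD1 on the other strand overlaps NUDT21, with 195 counts on average against 41.2 for NUDT21. CPSF6 averaged 14.5 ± 1.93 and 14.0 ± 2.63 CPM and CPSF7 averaged 11.8 ± 0.486 and 12.5 ± 1.79 CPM in the same order. In CFIIm, PCF11, which binds the polymerase tail and promotes termination, had 3.76, 10.5 and 7.48 CPM in the libraries labelled si-CPSF3 and 4.07, 5.63 and 4.16 CPM in the controls. Replicate 1 of the libraries labelled si-CPSF3 lay under all controls and the other 2 above them. The log2 fold change of 0.65 had a 95% interval of -0.15 to 1.45 (edgeR adjusted p = 0.445). The antisense gene PCF11-AS1 overlaps it with about as many counts, 24.5 on average against 25.5 for PCF11. CLP1, an RNA kinase, stood at -0.27 (-1.24 to 0.70) on 8 to 16 counts per library.

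PABPN1 had the narrowest estimate among the factors and an interval below 0. It stood at 157, 156 and 159 CPM in the libraries labelled si-CPSF3 and at 222, 193 and 207 CPM in the controls. In CPM the 3 libraries labelled si-CPSF3 were nearly identical and all below the controls. In the deposited FPKM they stood at 87.3, 92.8 and 128.2 against 149.7, 127.2 and 139.5 in the controls, and the groups overlapped. The means of 157 ± 1.78 and 207 ± 14.9 CPM (SD, n = 3 each) gave a log2 fold change of -0.40 (SE 0.14, 95% interval -0.69 to -0.10), which did not pass after adjustment (edgeR adjusted p = 0.168). The readthrough gene BCL2L2-PABPN1, which shares its exons, had 9, 0 and 9 counts in the libraries labelled si-CPSF3 and 0 in the controls, against 584 to 984 counts of PABPN1 per library. Reads shared by both genes may have been split between them, and PABPN1 is uncertain to that extent.

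The canonical poly(A) polymerase PAPOLA averaged 36.8 ± 2.62 CPM in the libraries labelled si-CPSF3 and 29.9 ± 7.95 CPM in the controls (SD, n = 3). Control replicate 3, at 21.3 CPM, was the lowest of the 6, and the groups overlapped (log2 fold change 0.29, edgeR adjusted p = 0.529). RBBP6, which activates cleavage, was at -0.09. PAPOLG had 9, 7 and 13 counts in the libraries labelled si-CPSF3 and 9, 9 and 5 counts in the controls, too few to be tested. PABPN1 makes up most of the summed level of these 4 genes, which did not overlap either, at 219.5 ± 1.44 CPM in the libraries labelled si-CPSF3 and 263 ± 19.4 CPM in the controls.

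Among the phosphatases and termination factors SSU72 was on the higher side and WDR82 on the lower. SSU72 had 67.9, 80.1 and 85.9 CPM in the libraries labelled si-CPSF3 and 52.0, 59.8 and 47.4 CPM in the controls. Every library labelled si-CPSF3 was above every control. The log2 fold change was 0.56 (SE 0.16, 95% interval 0.22 to 0.89) and missed the threshold (edgeR adjusted p = 0.0824). The mean fold was 1.47. No other counted gene overlaps SSU72, which lies on chromosome 1 from 1541673 to 1574869 on the minus strand (GRCh38).

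WDR82, a subunit of the PNUTS phosphatase complex and of a histone methyltransferase complex, had 33.3, 43.2 and 33.8 CPM in the libraries labelled si-CPSF3 and 43.8, 45.6 and 52.3 CPM in the controls. The groups were separated by less than 1 CPM, between replicate 2 of the libraries labelled si-CPSF3 and control replicate 1. The log2 fold change was -0.36 (SE 0.17, 95% interval -0.71 to -0.01, edgeR adjusted p = 0.316). In the deposited FPKM the groups of WDR82 overlapped, at 6.49, 12.15 and 8.27 FPKM under the si-CPSF3 label and 16.01, 12.06 and 10.80 FPKM in the controls. Its partner TOX4, a DNA-binding protein, averaged 41.4 ± 3.24 and 40.4 ± 7.15 CPM in the same order of groups (SD, n = 3). The scaffold PPP1R10 had 5, 7 and 4 counts in the libraries labelled si-CPSF3 and 6, 4 and 3 counts in the controls, on 7 identical rows, and was not tested. MRPS18B on the other strand overlaps PPP1R10, with 40.7 counts on average against 4.83. The catalytic subunits PPP1CA and PPP1CB stood at 0.04 (95% interval -0.31 to 0.40) and 0.22 (-0.25 to 0.69). RAD9A, on the strand opposite to PPP1CA, had more counts than it, 558 against 240.0 on average.

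XRN2 spread more between libraries than any other abundant factor. It had 182, 334 and 686 counts in the libraries labelled si-CPSF3 and 257, 601 and 206 counts in the controls. These were 48.9, 78.0 and 156 CPM in the libraries labelled si-CPSF3 and 58.1, 125 and 53.6 CPM in the controls. One library of each group was high, replicate 3 labelled si-CPSF3 and control replicate 2, and the groups overlapped. The highest library was 3.18 times the lowest, while for the other 6 factors with at least 1000 counts in all this ratio was 1.19 to 1.81. The log2 fold change of 0.25 (SE 0.35, edgeR adjusted p = 0.801) turned to -0.31 without replicate 3 labelled si-CPSF3 and went to 0.76 without control replicate 2. No other counted gene overlaps XRN2. The deposited FPKM of XRN2 showed the same libraries high, at 14.0, 28.6 and 84.6 FPKM in those labelled si-CPSF3 and 21.0, 89.9 and 14.6 FPKM in the controls.

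**Figure D3:**
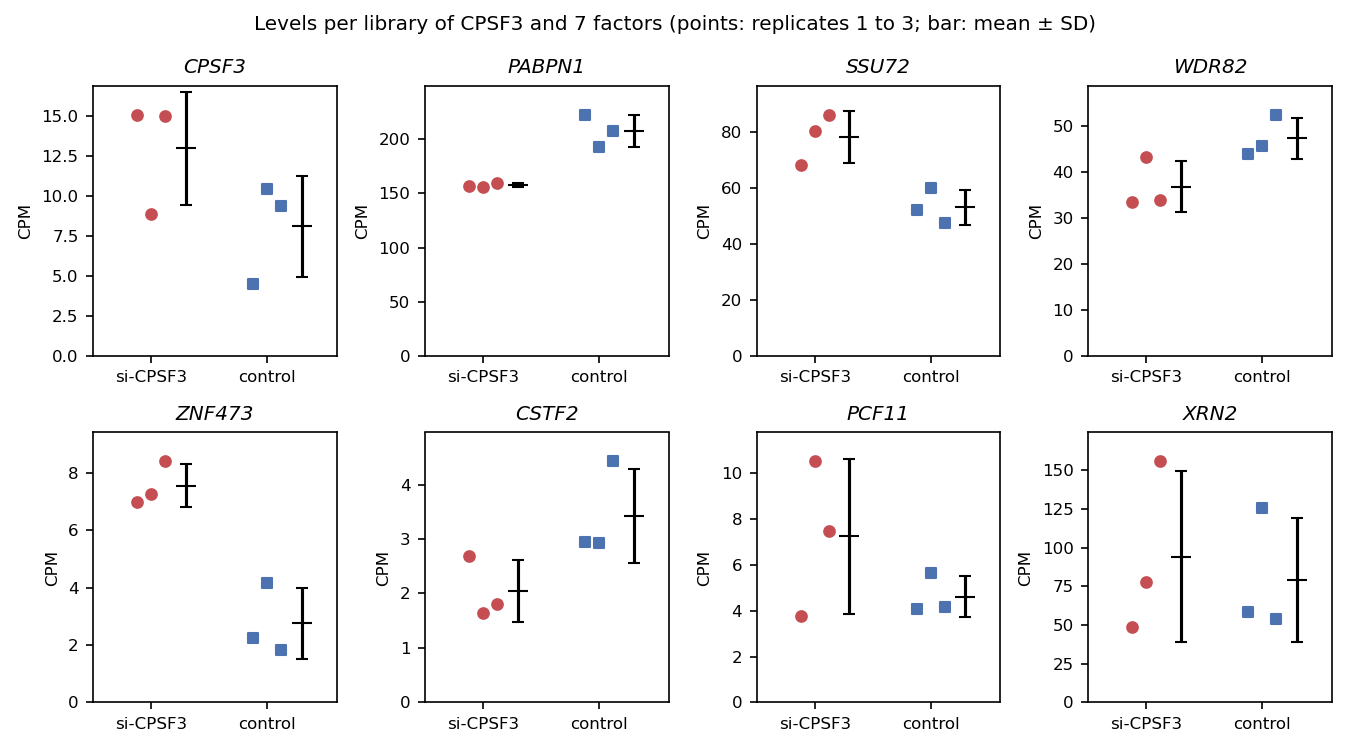
CPM per library of CPSF3 and 7 factors, libraries labelled si-CPSF3 at the left and controls at the right in each panel; points are replicates 1 to 3 and bars the mean ± SD (n = 3). Groups do not overlap for PABPN1, SSU72, WDR82, ZNF473 and CSTF2, and overlap for CPSF3, PCF11 and XRN2.

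Integrator subunits stood close to even. The 11 tested had log2 fold changes between -0.23 for INTS4 and 0.21 for INTS13, with a median of 0.01, 6 above 0 and 5 below, and no call. INTS6, which links the complex to protein phosphatase 2A, was the most abundant and most precise. It stood at 66.9, 56.8 and 56.7 CPM in the libraries labelled si-CPSF3 and 61.0, 67.3 and 60.9 CPM in the controls, and the groups overlapped (log2 fold change -0.07, 95% interval -0.39 to 0.25). INTS4, which holds the cleavage module together, averaged 15.3 ± 4.07 and 17.9 ± 2.09 CPM. The locus of INTS4 overlaps AAMDC on the other strand, with 140.0 counts on average against 71.3 for INTS4.

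Several of the less abundant subunits varied widely within a group. INTS1, the large scaffold, had 2.95, 10.5 and 6.80 CPM in the libraries labelled si-CPSF3, while the controls lay close together at 8.13, 7.29 and 8.07 CPM. INTS5 likewise ranged from 5.37 to 10.7 CPM in the libraries labelled si-CPSF3 and from 8.13 to 8.85 CPM in the controls. INTS8, a subunit of the phosphatase module, had 11.0, 6.07 and 7.26 CPM in the libraries labelled si-CPSF3 and 4.07, 8.34 and 9.89 CPM in the controls. INTS3, INTS7, INTS10, INTS12 and INTS14 had estimates of 0.19, -0.16, 0.01, 0.07 and 0.13, with overlapping groups. INTS2 was not tested, at 9, 14 and 11 counts in the libraries labelled si-CPSF3 and 6, 10 and 9 counts in the controls. In CPM the groups of INTS2 did not overlap, at 2.42, 3.27 and 2.49 CPM in the libraries labelled si-CPSF3 and 1.36, 2.08 and 2.34 CPM in the controls. Without a filter its log2 fold change was 0.51 (SE 0.56, edgeR adjusted p = 0.751). The summed Integrator level was 142 ± 4.12 CPM in the libraries labelled si-CPSF3 and 147 ± 4.75 CPM in the controls (SD, n = 3).

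The largest estimate of all 43 belonged to ZNF473, also called ZFP100, a zinc finger protein that binds the U7 ribonucleoprotein in histone mRNA processing. It had 26, 31 and 37 counts in the libraries labelled si-CPSF3 and 10, 20 and 7 counts in the controls. All libraries labelled si-CPSF3 were above all controls, at 7.54 ± 0.75 and 2.75 ± 1.25 CPM (SD, n = 3 each). The log2 fold change was 1.42 (SE 0.37, 95% interval 0.63 to 2.22), a fold of 2.68, just short of the threshold (edgeR adjusted p = 0.0608). ZNF473 passed in 3 of 17 alternatives, without a filter on low counts, with distinct rows summed, and without control replicate 2, where its log2 fold change was 1.87, and its adjusted p over the alternatives ran from 0.0149 to 0.282. VRK3 lies on the other strand and partly overlaps ZNF473. It had 66.5 counts on average against 21.8 for ZNF473 and a log2 fold change of 0.39 (SE 0.26, edgeR adjusted p = 0.528). Reads from the shared stretch could have been counted for either gene, and their number is not known.

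The intervals of the other tested histone mRNA factors included 0. LSM10 and LSM11, the proteins particular to the U7 ring, stood at -0.17 (95% interval -0.66 to 0.33) and -0.14 (-0.82 to 0.53). LSM11, the partner that ZNF473 binds, had 9.13, 12.4 and 4.99 CPM in the libraries labelled si-CPSF3 and 8.58, 8.75 and 11.97 CPM in the controls. SLBP, which binds the histone stem-loop, averaged 6.62 ± 1.18 and 7.64 ± 1.23 CPM in the same order (SD, n = 3). CASP8AP2, also called FLASH, which recruits the cleavage complex to U7, stood at 0.00 (-0.67 to 0.68). ERI1, an exonuclease that trims the stem-loop end, had 10, 19 and 15 counts in the libraries labelled si-CPSF3 and 10, 31 and 19 counts in the controls on the row used. A second ERI1 row held 4 to 11 and 5 to 7 counts. NPAT had 2, 5 and 2 counts in the libraries labelled si-CPSF3 and 8, 9 and 6 counts in the controls. The groups of NPAT did not overlap, but the gene did not pass the filter, and without a filter its log2 fold change was -1.24 with a 95% interval of -2.81 to 0.32 (edgeR adjusted p = 0.631). NPAT lies head to head with ATM on the other strand, which had 158 counts on average against 5.33 for NPAT.

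The cap-binding and ARS2 factors, which connect the cap to 3′ end formation and RNA decay, all had estimates below 0 without a call. SRRT, the ARS2 protein, had 19.3, 21.5 and 23.8 CPM in the libraries labelled si-CPSF3 and 25.1, 20.2 and 32.8 CPM in the controls (log2 fold change -0.26, 95% interval -0.71 to 0.18). NCBP1, the large cap-binding subunit, averaged 7.72 ± 1.98 and 8.55 ± 1.09 CPM, and its estimate changed sign in 1 of 17 alternatives. ZFC3H1, which directs polyadenylated RNA to the nuclear exosome, averaged 4.76 ± 2.17 and 5.79 ± 0.851 CPM in the same order (SD, n = 3).

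The heat map of deviations from each gene's mean sets the libraries side by side. Single libraries stood apart for several factors, such as INTS1, low in replicate 1 labelled si-CPSF3, and XRN2, high in replicate 3.

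**Figure D4:**
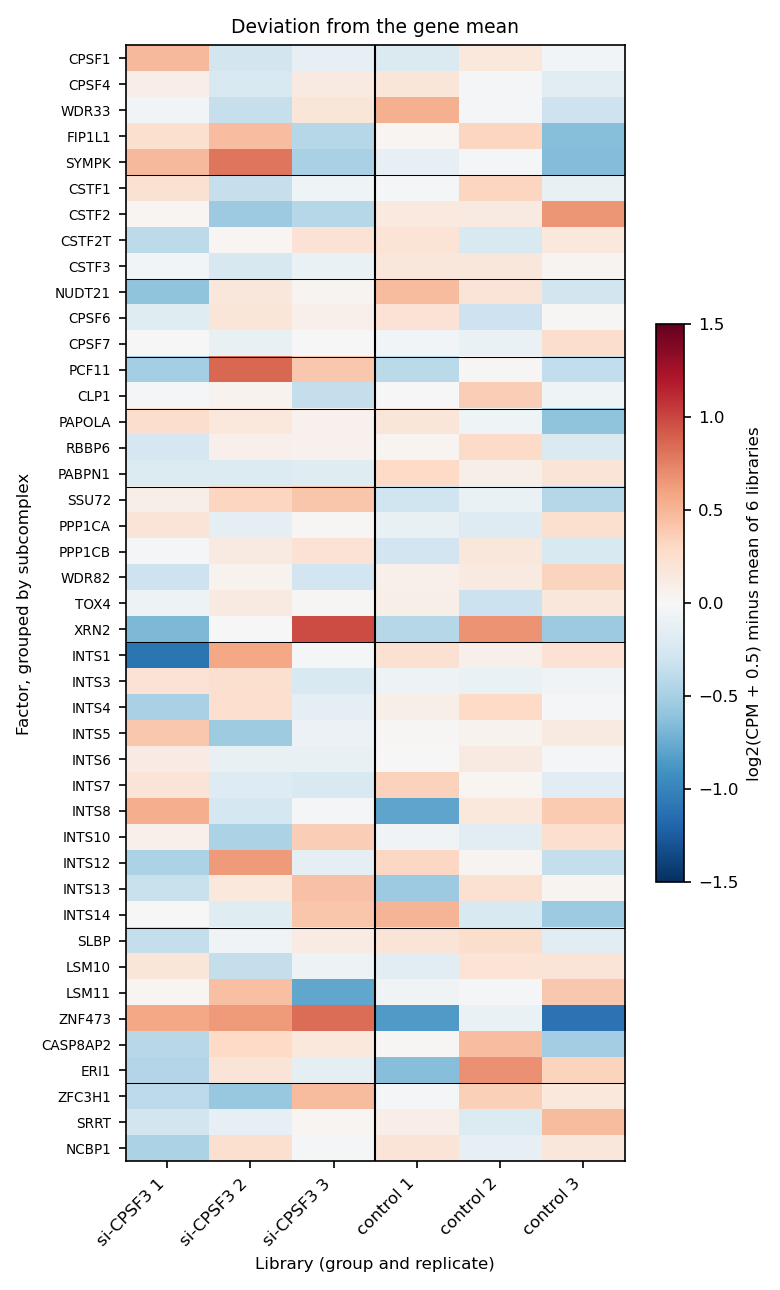
Deviation of log2(CPM + 0.5) from the mean of the 6 libraries for the 43 tested factors (rows, grouped by subcomplex), with the libraries labelled si-CPSF3 left of the line and controls right of it. ZNF473 and SSU72 are above their mean in all 3 libraries labelled si-CPSF3 and PABPN1 below it, while XRN2 is high in 1 library of each group.

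Ratios between paralogs within a library need no scaling between libraries. Of 4 paralog ratios compared, none passed (two-sided exact permutation tests, adjusted p = 0.8 each, where 3 against 3 libraries cannot give a raw p under 0.1). The log2 ratio of CSTF2T to CSTF2 counts was 0.12 ± 0.70 in the libraries labelled si-CPSF3 and -0.49 ± 0.33 in the controls (SD, n = 3 each; exact permutation p = 0.3). PAPOLG to PAPOLA was -3.95 ± 0.45 and -4.00 ± 0.10, CPSF7 to CPSF6 was -0.29 ± 0.24 and -0.15 ± 0.29, and PPP1CB to PPP1CA was -1.88 ± 0.26 and -2.06 ± 0.43 in the same order.

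Other genes of the pathway gave no call either. Of 58 genes in 5 lists, 56 were tested, with 31 above 0 and 25 below and 0 past the threshold by edgeR, DESeq2 or limma-voom, and 4 at an unadjusted p under 0.05, where all genes tested had 2.23% past the threshold and 15.4% at an unadjusted p under 0.05. The 25 tested elongation and termination regulators had a median log2 fold change of 0.05. Among them TTF2, a termination factor that releases the polymerase, stood at 16.9, 27.1 and 15.9 CPM in the libraries labelled si-CPSF3 and 28.2, 36.1 and 29.7 CPM in the controls, with -0.65 (SE 0.22, edgeR adjusted p = 0.153). The PAF complex genes CDC73 at 0.83 and RTF1 at -0.38 were the others of this list with an interval that excluded 0, named after their values were seen. The 15 tested genes of the nuclear exosome and its adaptors had a median of 0.00, and EXOSC2, a cap subunit of the exosome, stood at 17.7 ± 0.875 CPM in the libraries labelled si-CPSF3 and 24.5 ± 0.799 CPM in the controls (log2 fold change -0.47, edgeR adjusted p = 0.221). The 7 Integrator-linked factors had a median of 0.08, with INIP of the SOSS complex at -0.49 (edgeR adjusted p = 0.468). The 5 Sm proteins that complete the U7 ring had a median of 0.06, with SNRPE at -0.27 (edgeR adjusted p = 0.636), and the 4 nucleases a median of 0.16.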

How the data were processed

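The authors deposited raw read counts per gene and FPKM values per gene, each with 1 column per library. Per the submitters' processing notes, reads were placed on hg38, with the aligner, counting tool, annotation and strand setting not given in the sources used here. The deposited count and FPKM values did not scale alike: over 6608 genes with at least 20 counts in every library, the ratio of count to FPKM, relative to its library's median, ranged a median 1.54-fold over libraries. FPKM therefore served for levels between genes and as an alternative. The labels' protocols name a column RNA kit and a SMARTer mRNA library kit.

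The row with the highest mean count was kept per gene name (25479 rows, 23382 names); 4 of the 47 factors stood on several rows. The test was edgeR 4.0.16 (glmQLFit, glmQLFTest) in R 4.3.3, with TMM factors, edgeR's default filter, no covariate beside the group, two-sided, and Benjamini-Hochberg adjustment over 11069 genes at 0.05. It was also run on counts simulated from its own model with dispersions fitted to these libraries. Such a run cannot show whether the model suits them. SE is the absolute log2 fold change over the root of F. CPM is scaled to TMM-adjusted library size. Exact permutation tests used SciPy 1.17.1. DESeq2 1.42.0, limma 3.58.1, other scalings and filters, the replicate number as a term, each library left out, FPKM with a pseudocount of 1 or 0.1, summed rows, and a fit without ribosomal, mitochondrial and MALAT1 genes were alternatives. None of the 6 library pairs within a group agreed within sampling noise (chi-square per degree of freedom 5.91 to 14.2).

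The factors and lists were chosen with earlier results of these data known. Named were all 47 factors, the 4 nucleases and, per other list, the gene with the smallest p; overlapping genes, CDC73 and RTF1 were named after their values were seen. Positions and transcript ends are from GENCODE 29 on GRCh38, with the principal coding transcript, the longest where several tie. One cell type marker is not reported here.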

Additional observations from a re-analysis of the deposited data

How the results depend on the processing

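The count of 0 factors past the threshold became 1, ZNF473, without a filter on low counts, 1 with distinct rows summed, and 0 to 1 with a library left out; it stayed 0 in the other alternatives, and the pathway lists gave 0 in all 18. The 247 genes past the threshold became 547 without a filter, 41 on log2(FPKM + 1), 31 on log2(FPKM + 0.1) and 85 to 199 with 1 library fewer: 115 and 85 without replicates 1 and 2 labelled si-CPSF3, and 122 without control replicate 1. With the replicate block it was 147; same-numbered libraries deviated together at r = 0.10, 0.11 and -0.06 over 8427 genes, so the numbers were not taken to pair the libraries. The factors' median ran from -0.17 with library totals, where that of all genes was -0.10, to -0.02. Of 751 alternative values of single factors, 60 had the other sign, in 22 factors whose estimates were at most 0.25 in size; SSU72 stayed at 0.46 to 0.67 (adjusted p 0.0618 to 0.728), PABPN1 at -0.49 to -0.35 (0.0966 to 0.707) and WDR82 at -0.55 to -0.26. CPSF3 stayed above 0 at 0.36 to 0.91 in 17 alternatives. No paralog ratio could pass at this number of libraries; PAPOLG to PAPOLA and PPP1CB to PPP1CA each changed sign in 1 of 9 alternatives. Depth limits the 22 tested factors under 10 CPM and the 4 not tested.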

Other observations

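The deposited FPKM values separated the groups for CSTF3 more widely than its counts did. They averaged 17.9 ± 2.47 FPKM in the libraries labelled si-CPSF3 and 26.8 ± 1.11 FPKM in the controls (SD, n = 3 each), a difference of -0.56 on the log2(FPKM + 1) scale that did not pass (limma adjusted p = 0.569), beside -0.26 from the counts. ZNF473 had 1.31, 2.38 and 1.90 FPKM in the libraries labelled si-CPSF3 and 0.528, 0.994 and 0.457 FPKM in the controls, with 0.78 on the log2(FPKM + 1) scale (limma adjusted p = 0.225). Its means were 1.86 and 0.660 FPKM in the same order. At levels this low the added 1 shrinks the difference, so 0.78 is not comparable with the log2 fold change of 1.42 from the counts. The cause of the wider separation of CSTF3 in FPKM was not tested.

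Of the 47 factors, 20 overlap in GENCODE 29 another gene named in the count table, 2 of them on the same strand. For 8 the overlapping gene had the higher mean count, while CCNE2, which overlaps INTS8, had no counts. Overlap here means that the whole gene spans meet, introns included, and shared exonic bases were not computed.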
